A study of Mus musculus with 9 samples.

Results

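The tumour necrosis factor (TNF) superfamily and its receptors were followed across dorsal root ganglia (DRG), spinal cord and hind paw of mice treated with paclitaxel and a lymphotoxin-beta receptor antagonist. Members were chosen by gene symbol. They were the genes whose symbol begins with Tnfsf or Tnfrsf and a digit, together with Lta, Ltb, Tnf, Fas, Fasl, Cd27, Cd70, Cd40, Cd40lg, Eda, Edar, Eda2r, Relt and Ltbr. The related nerve growth factor receptor Ngfr was left out. This gave 45 genes, 18 ligands and 27 receptors, of the 22609 genes counted. The libraries came from male C57 mice aged 8 to 12 weeks, with 3 libraries each of DRG from levels L3 to L5, lumbar spinal cord, and punch biopsies of both hind paws. All 9 libraries shared the same treatment. It consisted of 2 intraperitoneal injections of paclitaxel at 2 mg/kg, a day apart, and 15 µg of the antagonist at each of the intraplantar and intrathecal sites. The titles place the antagonist on days 1 and 4, whereas the series text has it given between the 2 paclitaxel doses and again 1 day after. Tissue was taken 6 days after the last paclitaxel dose. Samples without the antagonist are not analysed here, so the tissues were compared with each other and no effect of either agent was tested. Whether the 3 samples of a tissue are separate mice is not in the labels, so the p-values rest on a spread between samples that may be technical.

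The ligands of this family are mostly membrane proteins that act as trimers, and some are cut from the surface to act at a distance. Their receptors carry cysteine-rich repeats outside the cell. Inside, some receptors hold a death domain that recruits the adaptors Tradd, Fadd or Edaradd and can lead to caspase-8 activation or necroptosis. Others bind TRAF proteins and switch on NF-kappaB and kinase pathways. Decoy receptors bind ligand without passing on a full signal. In skin and nerve the family is known for ectodysplasin signalling in hair follicles and glands, for TNF signalling in inflammation and pain, and for lymphotoxin signalling in lymphoid tissue and immune cells.

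Gene reads numbered 15537545 to 23229724 in a library. Levels are given in CPM, the reads of a gene scaled to the same total of gene reads in every library (TMM factors), and 3 reads, used as a floor, equalled 0.129 to 0.193 CPM. Marker genes followed the labelled tissues. The summed level of 10 sensory neuron markers was 5321 to 6223 CPM in DRG and at most 110.5 CPM elsewhere, that of 6 spinal neuron markers was 613 to 701 CPM in spinal cord and at most 1.83 CPM elsewhere, and that of 9 keratinocyte markers was 38302 to 57602 CPM in paw and at most 39.2 CPM elsewhere. Paw also held 15864 to 20189 CPM of 7 skeletal muscle markers. Some libraries stood apart from the others of their tissue. Spinal cord 1 had 883.5 CPM of 7 red cell and marrow markers against 227 and 272 CPM in the other two, and 17.9 CPM of 11 T and B cell markers against 2.05 and 6.49 CPM. Spinal cord 3 had 6146 CPM of 7 Schwann and satellite glia markers against 2165 and 2335 CPM, and 1160 CPM of 7 fibroblast markers against 486 and 387 CPM. DRG 1 and 2 had 622 and 955 CPM of the skeletal muscle markers against 35.3 CPM in DRG 3. In such bulk tissue, fewer cells of a type and less RNA per cell cannot be told apart.

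Receptor transcripts were the more abundant side of the family. Summed over members, receptors came to 436.9, 349.5 and 422.9 CPM in DRG, spinal cord and paw, and ligands to 46.4, 30.6 and 37.4 CPM. Of the 45 members, 29 had enough reads to be tested, 7 of 18 ligands (38.9%) and 22 of 27 receptors (81.5%), against 71.2% of all genes. The other 16 members, 11 ligands and 5 receptors, had no more than 42 reads in any tissue over its 3 libraries. Levels of the members in each library are shown in the dot plot by gene.

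**Figure D1:**
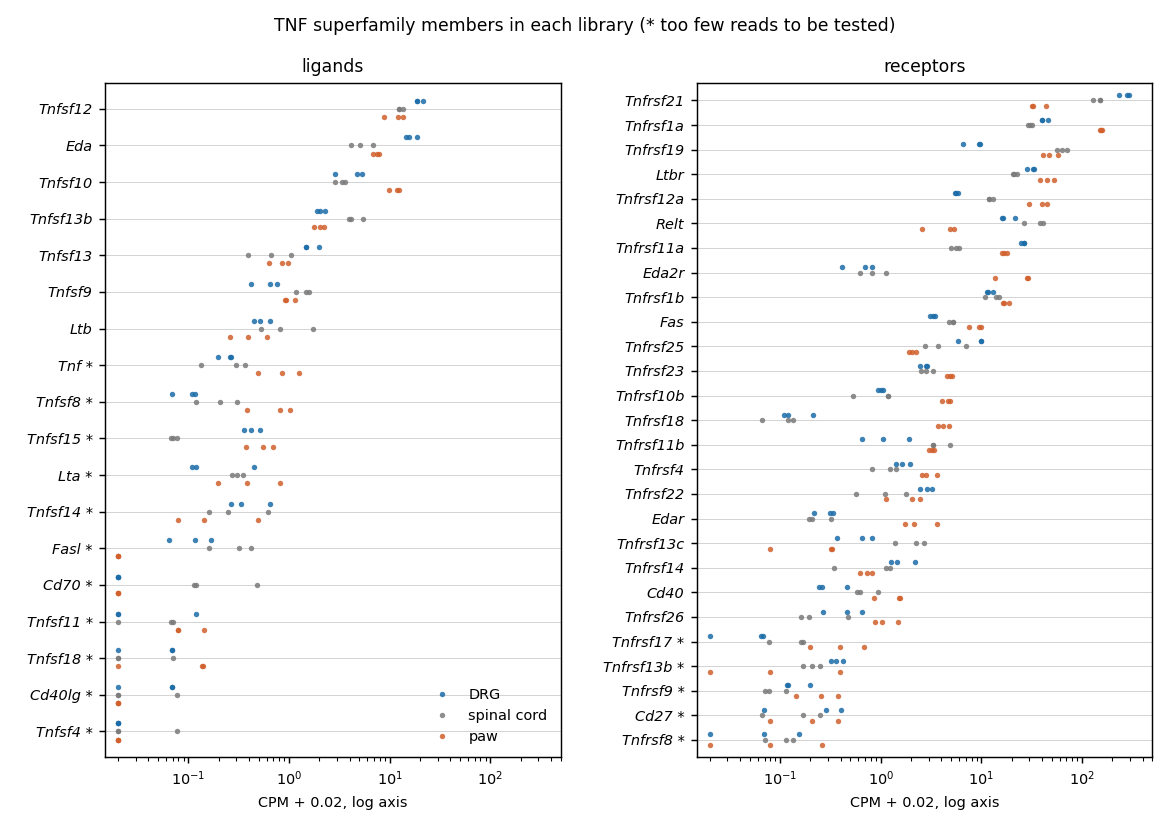
Level of each of the 45 members in the 9 libraries, in CPM plus 0.02 on a log axis, with ligands on the left and receptors on the right. Each point is 1 library, coloured by tissue, and an asterisk marks the 16 members with too few reads to be tested. Tnfrsf21 in DRG and Tnfrsf1a in paw lie at the upper end, and most ligands lie near or below 1 CPM.

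Differences between tissues are given as log2 fold changes ± SE from edgeR's quasi-likelihood test on the read counts, with Benjamini-Hochberg adjusted p-values over the 16091 genes tested, and a gene was called where the adjusted p was under 0.05. A member passes the filter on low counts more easily when 1 tissue is high, so the counts below describe the tested members and not the whole family. Between DRG and spinal cord, 18 of 29 members were called, 9 higher and 9 lower in DRG, where 59.6% of all tested genes were called. Between paw and DRG, 25 members were called, 16 higher and 9 lower in paw, where 80.5% of all genes were called. Between paw and spinal cord, 23 were called, 16 higher and 7 lower in paw, against 81.6% of all genes. The share of members called thus lay near the share of all genes in each comparison. At a 2-fold difference, 11, 19 and 17 members were called in the 3 comparisons, where 28.4%, 53.2% and 54.4% of all genes were. The median log2 fold change of the tested members was 0.27, 0.74 and 0.73 in these comparisons, beside −0.02, −0.02 and −0.03 for all genes.

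The receptors, 22 of the 29 tested members, also made up most of the calls in paw. Of the 22 tested receptors, 15 were higher and 6 lower in paw than in DRG, and 14 were higher and 5 lower in paw than in spinal cord. For comparison, 39.7% of all genes were higher and 40.8% lower in paw than in DRG, and 39.9% were higher and 41.7% lower than in spinal cord. Of the 7 tested ligands, 4 were called in each of these comparisons, with 1 higher and 3 lower in paw than in DRG, and 2 higher and 2 lower than in spinal cord. A stricter rule asked for a call and at least a 2-fold difference against both other tissues. It took 12 members, with Tnfsf13 and Eda highest in DRG, Tnfsf13b and Tnfrsf13c in spinal cord, and Tnfsf10, Tnfrsf1a, Tnfrsf10b, Tnfrsf12a, Tnfrsf18, Tnfrsf26, Edar and Eda2r in paw. Across all tested genes the rule took 7.00% for DRG, 9.71% for spinal cord and 20.1% for paw, or 36.8% in all. The fold changes of the 29 members are shown in the plot of fold changes by comparison.

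**Figure D2:**
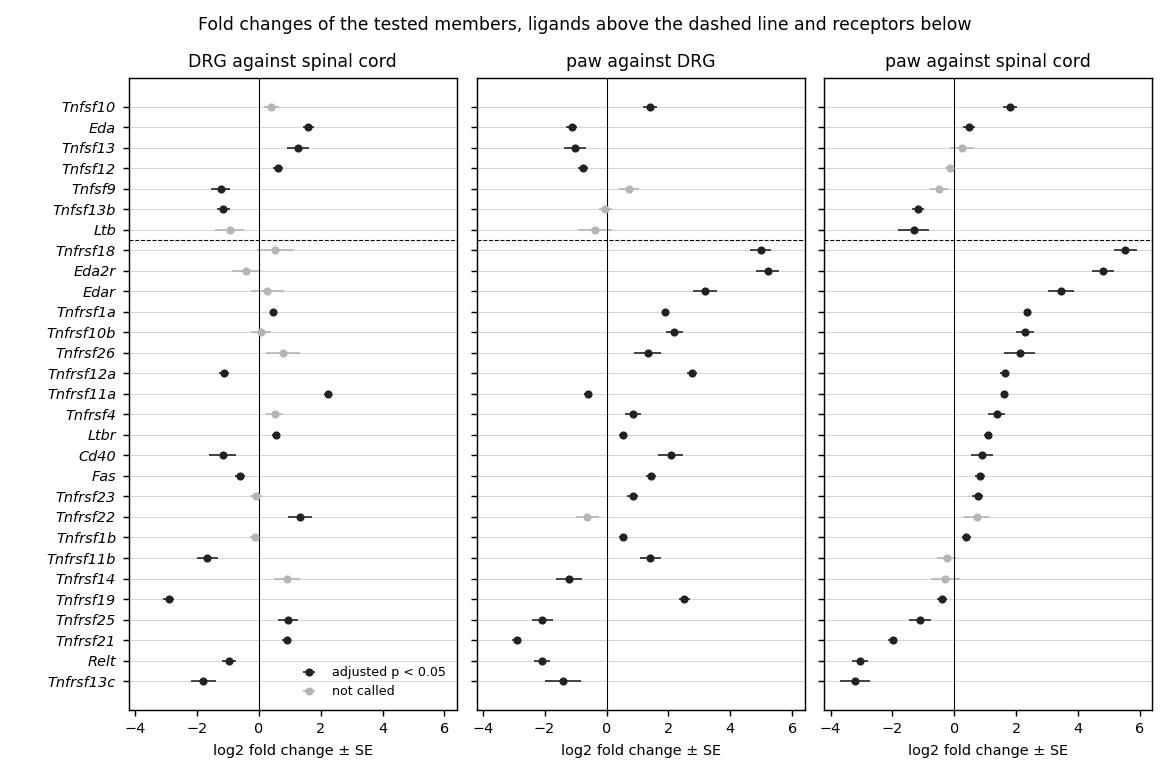
Log2 fold change ± SE of the 29 tested members in the 3 comparisons, with ligands above and receptors below the dashed line, ordered by the comparison of paw with spinal cord. Black points have an adjusted p under 0.05 and grey points do not. Tnfrsf18 and Eda2r have the largest values in paw, and Relt, Tnfrsf13c and Tnfrsf21 lie to the left in both paw comparisons.

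The lymphotoxin receptor Ltbr, the target of the antagonist, had the order paw, DRG, spinal cord, while its ligands were scarce in all tissues. Ltbr binds the membrane heterotrimer of lymphotoxin alpha and beta and the cytokine LIGHT (Tnfsf14), and drives the non-canonical NF-kappaB pathway. Its level was 32.7, 33.1 and 28.2 CPM in the DRG libraries. It was 22.4, 20.9 and 20.5 CPM in spinal cord and 38.1, 45.1 and 52.0 CPM in paw. The 3 tissues did not overlap, with paw 1 close to the DRG libraries and spinal cord lowest. Ltbr was higher in DRG than in cord (0.56 ± 0.12, adjusted p = 0.00213), and higher in paw than in DRG (0.53 ± 0.12, adjusted p = 0.00172) and spinal cord (1.08 ± 0.12, adjusted p = 5.92e-06). Without DRG 1 and 2, the libraries with muscle reads, the difference between DRG and spinal cord was 0.41, in a fit that left 1 DRG library. The part of muscle in this difference was not tested. Within paw, Ltbr followed the order of the summed skeletal muscle markers, which were 15864, 17851 and 20189 CPM in paw 1, 2 and 3. Endothelial markers had the same order, at 368, 431 and 442 CPM, and so did Schwann and satellite glia markers, at 609, 639 and 726 CPM. Red cell and marrow markers did too, at 8.38, 12.0 and 12.7 CPM. The part of these cell types in the Ltbr level was not tested.

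Ltb, the membrane-anchoring subunit of lymphotoxin, was at 0.626, 0.434 and 0.495 CPM in DRG. In spinal cord it was at 1.70, 0.513 and 0.804 CPM, and in paw at 0.239, 0.370 and 0.589 CPM. Spinal cord 1 was the highest library and held 34 of the 59 spinal cord reads. That library was also the one with the most B cell reads, with 85 reads of Cd79b, 59 of Cd79a and 30 of Ms4a1. It had the most red cell and marrow markers and macrophage markers of its tissue as well. The part of these cell types in the Ltb level was not tested. In paw Ltb was called lower than in cord (−1.31 ± 0.51, adjusted p = 0.0312), and without spinal cord 1 this became −0.67 with an adjusted p of 0.218. The call was also lost without paw 1 or paw 2 (adjusted p = 0.108 and 0.0847). Between DRG and spinal cord Ltb was not called (−0.94 ± 0.47, adjusted p = 0.103), but it was without spinal cord 2, at −1.28 with an adjusted p of 0.0294.

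Lta, the soluble subunit, had 2, 9 and 2 reads in DRG, 5, 7 and 5 reads in cord and 6, 13 and 3 reads in paw. Tnfsf14 had 7, 13 and 5 reads in DRG, 12, 3 and 4 reads in cord and 1, 2 and 8 reads in paw. Neither was tested, and the tissues overlapped for both. Tnfrsf14, the second receptor of LIGHT and a ligand of the inhibitory lymphocyte receptor Btla, was at 2.19, 1.25 and 1.44 CPM in DRG. It was at 1.10, 0.327 and 1.21 CPM in spinal cord and 0.599, 0.802 and 0.707 CPM in paw. The call lower in paw than in DRG (−1.21 ± 0.43, adjusted p = 0.0222) was lost without DRG 1, paw 1 or paw 3 (adjusted p = 0.0977, 0.0725 and 0.0554), and without spinal cord 3 Tnfrsf14 was called higher in DRG than in cord (1.21, adjusted p = 0.0449).

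Set per kilobase of merged exon, Ltbr stood far above its ligands. Its mean level was 14.9 ± 1.29 CPM per kb in DRG (SD, n = 3), 10.1 ± 0.480 in spinal cord and 21.4 ± 3.29 in paw. Ltb stood at 0.440 ± 0.0829, 0.854 ± 0.526 and 0.339 ± 0.150 CPM per kb. In raw reads, there were 52.2, 76.1 and 56.9 Ltbr reads per Ltb read in the DRG libraries, 13.2, 40.7 and 25.5 in spinal cord and 159, 122 and 88.3 in paw. The ratio was lowest in spinal cord 1, and the 3 tissues did not overlap.

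The promoters of this receptor and ligand are shown because both genes were followed in the tissues where the antagonist was given. They span 250 bases before to 50 after the start in RefSeq (mouse GRCm38.p6), with Ltb at chr17:35194257-35194556 (+ strand) and Ltbr at chr6:125313836-125314135 (- strand). Capitals mark a match to the NF-kappaB consensus, which lies on the opposite strand.
Ltb: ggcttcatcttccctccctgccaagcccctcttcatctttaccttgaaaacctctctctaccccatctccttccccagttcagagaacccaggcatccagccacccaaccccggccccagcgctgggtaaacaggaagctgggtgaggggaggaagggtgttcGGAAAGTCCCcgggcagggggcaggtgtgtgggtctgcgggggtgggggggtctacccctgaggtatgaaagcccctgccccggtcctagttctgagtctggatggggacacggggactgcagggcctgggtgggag
Ltbr: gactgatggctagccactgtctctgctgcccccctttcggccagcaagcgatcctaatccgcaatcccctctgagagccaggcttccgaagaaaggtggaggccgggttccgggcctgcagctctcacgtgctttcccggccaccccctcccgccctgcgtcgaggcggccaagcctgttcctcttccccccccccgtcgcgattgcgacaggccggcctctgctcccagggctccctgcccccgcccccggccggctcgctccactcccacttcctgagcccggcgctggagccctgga
RefSeq promoters were matched for 35 of the 45 members, 39 promoters in all, and these motifs were searched on both strands. The NF-kappaB consensus occurred in 5.8% of all 32851 promoters of this length and in 4 of the 39 of the members, those of Ltb, Tnfrsf25, Tnfrsf8 and Tnfrsf9. The AP-1 motif TGANTCA occurred in 7.81% of promoters and in 7 of the 39 of the members, which belong to Fas, Tnfrsf8, Tnfrsf9, Tnfsf13, Tnfsf13b and Tnfsf14. The promoter windows of Tnfsf13b overlap and hold the same AP-1 site, which is counted in each.

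TNF itself was near the floor, and its main receptor was most abundant in paw. Tnf had 4, 5 and 5 reads in DRG, 7, 6 and 2 reads in cord and 14, 20 and 8 reads in paw, and did not pass the filter. Every paw library had more reads of Tnf than any other library. With no filter on low counts Tnf was called higher in paw than in DRG (1.88, adjusted p = 0.00448) and spinal cord (1.70, adjusted p = 0.00778). Tnfrsf1a, the widely expressed death domain receptor of TNF and lymphotoxin alpha, was at 39.8, 45.7 and 39.9 CPM in DRG. It was at 31.8, 30.2 and 29.1 CPM in spinal cord and 152, 153 and 157 CPM in paw. The paw libraries lay within a narrow range, above all others. Per kilobase, Tnfrsf1a was the most abundant member in paw, at 71.4 ± 1.33 CPM per kb, and the second in DRG. In spinal cord Tnfrsf1a, at 14.1 ± 0.620 CPM per kb, and Tnfrsf19, at 14.0 ± 1.60, came next after Tnfrsf21 and did not differ beyond their spread. Tnfrsf1a was higher in paw than in DRG (1.88 ± 0.09, adjusted p = 2.48e-09) and spinal cord (2.34 ± 0.09, adjusted p = 3.95e-10), and higher in DRG than in spinal cord (0.46 ± 0.09, adjusted p = 8.48e-04).

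Tnfrsf1b, the TNF receptor without a death domain, known from immune and endothelial cells and microglia, differed less. Its level was 13.1, 11.2 and 11.7 CPM in DRG, 13.9, 10.8 and 15.0 CPM in cord and 16.3, 18.8 and 16.9 CPM in paw. Paw was higher than DRG (0.53 ± 0.14, adjusted p = 0.0043). The difference from spinal cord was smaller (0.39 ± 0.14, adjusted p = 0.0215), and its call was lost without spinal cord 2 or paw 2 (adjusted p = 0.0714 and 0.0651). DRG and spinal cord overlapped and were not called different (−0.14 ± 0.14, adjusted p = 0.424). Paw, the higher tissue, also had more summed macrophage markers, at 393 to 448 CPM against 129 to 169 CPM in DRG and 158 to 268 CPM in spinal cord, and more endothelial markers, at 368 to 442 CPM against 158 to 290 CPM in the other tissues. Single markers differed from these sums, since Cldn5, an endothelial junction protein, was lower in paw than in spinal cord (−0.58 ± 0.12, adjusted p = 8.47e-04), and Csf1r, the receptor of macrophage colony-stimulating factor, was not called between them (−0.21 ± 0.13, adjusted p = 0.154). Summed microglia markers were lowest in paw, at 93.3 to 100.6 CPM against 114 to 127 CPM in DRG and 263 to 266 CPM in spinal cord. The part of these cell types in the Tnfrsf1b level was not tested.

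Among the death receptors, Fas and the TRAIL receptor Tnfrsf10b were higher in paw, and Tnfrsf25 and Tnfrsf21 were lower there. Fas was at 3.44, 3.09 and 3.32 CPM in DRG, 4.70, 5.22 and 5.17 CPM in cord and 9.46, 7.53 and 9.95 CPM in paw. The 3 tissues did not overlap, with DRG lowest. Fas was higher in paw than in DRG (1.45 ± 0.16, adjusted p = 5.11e-06) and spinal cord (0.84 ± 0.16, adjusted p = 3.74e-04), and lower in DRG than in spinal cord (−0.61 ± 0.16, adjusted p = 0.00681), a call lost without DRG 1 and 2 at nearly the same fold change (−0.59, adjusted p = 0.0925). Its ligand Fasl, which cytotoxic lymphocytes use to kill, had 1, 2 and 3 reads in DRG and 6, 3 and 7 reads in spinal cord. It had no read in paw. With a floor of 3 reads over the paw group, the lower bound of the fold above paw was 4.52 for spinal cord and 1.58 for DRG. The counting error of the spinal cord and DRG reads is not included in these values.

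TRAIL (Tnfsf10), a ligand known for inducing death of transformed cells and for its interferon response, was at 4.78, 2.85 and 5.30 CPM in DRG. It was at 3.35, 2.85 and 3.56 CPM in spinal cord and 9.76, 11.9 and 12.4 CPM in paw. Every paw library was above every other library, and DRG 2 was the lowest of its tissue and level with spinal cord 2. Tnfsf10 was higher in paw than in DRG (1.40 ± 0.22, adjusted p = 9.36e-05) and spinal cord (1.81 ± 0.22, adjusted p = 1.33e-05). Between DRG and spinal cord it was not called (0.41 ± 0.23, adjusted p = 0.148), but was without DRG 2 (0.64, adjusted p = 0.0142).

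Tnfrsf10b, the TRAIL receptor with a death domain, was likewise highest in paw. It was at 0.983, 0.917 and 1.04 CPM in DRG, 1.15, 0.513 and 1.15 CPM in cord and 4.85, 4.01 and 4.65 CPM in paw. The paw libraries were again above all others, and DRG and spinal cord overlapped. The differences were 2.19 ± 0.28, adjusted p = 1.75e-05, for paw against DRG and 2.27 ± 0.29, adjusted p = 1.42e-05, for paw against spinal cord. Without spinal cord 1 and 3 the latter was 3.14.

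Of the decoy receptors near the TRAIL system, Tnfrsf22 had its highest mean in DRG and Tnfrsf23 in paw. The mean of Tnfrsf26, their neighbour, was also highest in paw. Paw and DRG were not called different for Tnfrsf22 (−0.62 ± 0.37, adjusted p = 0.143). Tnfrsf22, Tnfrsf23 and Tnfrsf26 are neighbouring and similar genes, and reads that align to several places were not counted, so their levels are uncertain. Tnfrsf22 was at 3.22, 2.46 and 2.87 CPM in DRG, 0.550, 1.07 and 1.78 CPM in cord and 2.45, 1.11 and 2.00 CPM in paw. Tnfrsf22 was higher in DRG than in cord (1.34 ± 0.38, adjusted p = 0.0102), and that call was lost without DRG 1 and 2 at nearly the same fold change (1.36, adjusted p = 0.0775). Spinal cord 3, with the most Schwann and satellite glia and fibroblast reads of its tissue, was the highest of the spinal cord libraries. Without it Tnfrsf22 was also called higher in paw than in spinal cord (1.22, adjusted p = 0.0178), as it was without paw 2 (1.01, adjusted p = 0.0405). The part of Schwann cells, satellite glia and fibroblasts in the Tnfrsf22 level was not tested. Tnfrsf23 had 2.69 ± 0.244 CPM in DRG and 2.86 ± 0.420 CPM in cord (SD, n = 3). It was higher in paw, at 4.85, 4.57 and 5.07 CPM (paw against DRG 0.84 ± 0.18, adjusted p = 0.00114; paw against spinal cord 0.75 ± 0.18, adjusted p = 0.00236).

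Tnfrsf26, another gene of this cluster, was at 0.447, 0.627 and 0.248 CPM in DRG, 0.450, 0.140 and 0.172 CPM in cord and 1.02, 0.864 and 1.47 CPM in paw. The paw level lay above spinal cord (2.11 ± 0.49, adjusted p = 0.00177), and without spinal cord 1 this difference was 2.82. The difference from DRG (1.33 ± 0.44, adjusted p = 0.0154) lost its call without DRG 3 or paw 3 (adjusted p = 0.0648 and 0.0738), and was 2.14 without DRG 1 and 2.

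Tnfrsf21 (death receptor 6), known for a role in axon pruning and oligodendrocyte maturation, was the most abundant member in both nervous tissues. Its level was 233, 295 and 276 CPM in DRG, 151, 150.3 and 127 CPM in cord and 31.6, 32.6 and 43.5 CPM in paw. The tissues were far apart, with no overlap. Tnfrsf21 was higher in DRG than in cord (0.90 ± 0.14, adjusted p = 1.50e-04), and lower in paw than in DRG (−2.90 ± 0.15, adjusted p = 4.68e-09) and spinal cord (−1.99 ± 0.14, adjusted p = 9.65e-08). Per kilobase it stood at 73.8 ± 8.79 CPM per kb in DRG, 39.4 ± 3.72 in cord and 9.89 ± 1.81 in paw.

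Tnfrsf25 (death receptor 3), the receptor of the T cell co-stimulator Tnfsf15, was at 9.97, 5.89 and 9.95 CPM in DRG. It was at 3.70, 2.71 and 7.06 CPM in spinal cord and 2.04, 2.22 and 1.88 CPM in paw. DRG 2 was below the other DRG libraries, and spinal cord 3 overlapped DRG. Tnfrsf25 was lower in paw than in DRG (−2.07 ± 0.35, adjusted p = 2.02e-04). Its call higher in DRG than in spinal cord (0.95 ± 0.32, adjusted p = 0.0238) was lost when DRG 1 or 3 (adjusted p = 0.0811 and 0.0783) or spinal cord 1 or 2 (adjusted p = 0.0768 and 0.0974) was left out, and was 1.69 without spinal cord 1 and 3. Between paw and spinal cord the difference was −1.12 ± 0.36, adjusted p = 0.0135, and without spinal cord 3 it was −0.61 with an adjusted p of 0.0765. Spinal cord 3 was also the library with 6146 CPM of Schwann and satellite glia markers and 1160 CPM of fibroblast markers. The part of these cell types in these values was not tested. Tnfsf15 had 26 reads in DRG, 3 in cord and 26 in paw, which gives 8.06 times more in DRG than in spinal cord (95% exact counting interval 2.47 to 41.6) and 10.2 times more in paw (3.13 to 52.8).

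The ectodysplasin axis was split between tissues, with the ligand highest in DRG and both receptors and the adaptor highest in paw. Ectodysplasin (Eda) directs the formation of hair follicles, teeth and sweat glands, and its splice forms bind either Edar or Eda2r, a distinction that gene counts do not hold. Eda was at 18.5, 14.4 and 15.7 CPM in DRG, 5.10, 4.11 and 6.89 CPM in cord and 7.84, 7.53 and 6.83 CPM in paw. The DRG libraries were above all others, and spinal cord 3 fell within the paw range. Eda was higher in DRG than in cord (1.60 ± 0.19, adjusted p = 1.83e-05) and lower in paw than in DRG (−1.13 ± 0.18, adjusted p = 1.20e-04). Its smaller difference between paw and spinal cord (0.47 ± 0.19, adjusted p = 0.0385) lost its call in 5 of 9 fits that left out 1 library, DRG 3 (adjusted p = 0.0534), spinal cord 1 (adjusted p = 0.0796), spinal cord 2 (adjusted p = 0.142), paw 1 (adjusted p = 0.117) and paw 2 (adjusted p = 0.0701).

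Edar, the receptor with a death domain, was at 0.313, 0.290 and 0.198 CPM in DRG, where 17 reads were counted in all. It was at 0.300, 0.187 and 0.172 CPM in spinal cord and 1.74, 2.10 and 3.59 CPM in paw. Paw was clearly separated, and paw 3 was its highest library. The differences were 3.18 ± 0.39, adjusted p = 1.27e-05, for paw against DRG and 3.45 ± 0.41, adjusted p = 8.79e-06, for paw against spinal cord. Eda2r, the X-linked receptor, was at 0.804, 0.676 and 0.396 CPM in DRG, 1.10, 0.606 and 0.804 CPM in cord and 13.6, 28.9 and 28.0 CPM in paw. Paw 1 stood below the other paw libraries but above all libraries of the other tissues. Eda2r had the largest difference of the family between paw and DRG (5.21 ± 0.37, adjusted p = 1.30e-07, and 5.86 without DRG 1 and 2) and also lay above spinal cord (4.81 ± 0.36, adjusted p = 1.92e-07).

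Edaradd, the adaptor that links Edar to the TRAF proteins, had the same pattern as the receptors. It was at 0.268, 0.386 and 0.297 CPM in DRG, 0.350, 0.233 and 0.402 CPM in cord and 13.1, 13.0 and 11.9 CPM in paw. Paw lay above DRG (5.29 ± 0.23, adjusted p = 1.05e-09) and spinal cord (5.26 ± 0.23, adjusted p = 1.06e-09). Paw 1, with the lowest Edar and Eda2r of the paw libraries, had 57602 CPM of the summed keratinocyte markers against 38302 and 39983 CPM in paw 2 and 3. It had the least markers of several other cell types, among them skeletal muscle, fibroblasts and endothelium. The part of these cell types in these levels was not tested.

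The ratio of receptor to ligand reads shows the split within each library. There were 0.0169, 0.0201 and 0.0126 Edar reads per Eda read in DRG, 0.0588, 0.0454 and 0.0250 in spinal cord and 0.221, 0.279 and 0.526 in paw. For Eda2r there were 0.0435, 0.0468 and 0.0252 reads per Eda read in DRG, 0.216, 0.148 and 0.117 in spinal cord and 1.73, 3.84 and 4.10 in paw. Neither ratio overlapped between tissues, and the order was DRG, spinal cord, paw from low to high. The levels are drawn in the panels for ectodysplasin and TWEAK genes.

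**Figure D3:**
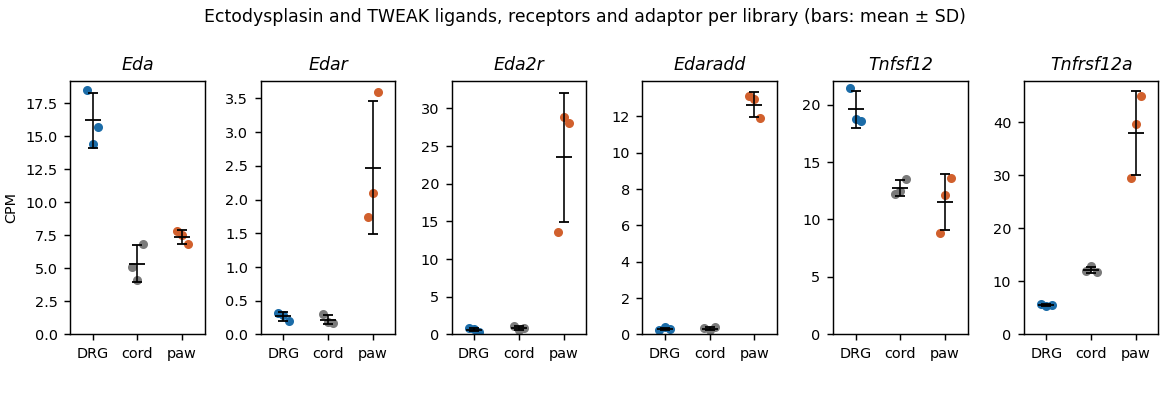
Level in CPM of the ectodysplasin genes Eda, Edar, Eda2r and Edaradd and of TWEAK (Tnfsf12) and its receptor Tnfrsf12a, with 1 point per library and bars for the mean ± SD of 3 libraries. The vertical axes start at 0 and differ between panels. Both ligands are highest in DRG, and the receptors and Edaradd are highest in paw.

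The promoters of the 3 receptors with the largest folds in paw, Edar, Eda2r and Tnfrsf18, are shown because these members moved together between tissues. In RefSeq on GRCm38.p6 they lie at chr10:58675647-58675946 (- strand), chrX:97377160-97377459 (- strand) and chr4:156026072-156026371 (+ strand), again 250 bases before to 50 after the start. Capitals mark a TATAAA match, searched on the given strand only.
Edar: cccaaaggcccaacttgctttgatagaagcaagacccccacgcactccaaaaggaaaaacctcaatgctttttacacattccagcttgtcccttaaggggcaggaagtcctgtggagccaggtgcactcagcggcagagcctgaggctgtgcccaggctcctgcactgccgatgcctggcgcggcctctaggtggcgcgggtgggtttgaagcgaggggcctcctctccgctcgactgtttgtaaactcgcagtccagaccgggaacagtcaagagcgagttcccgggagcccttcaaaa
Eda2r: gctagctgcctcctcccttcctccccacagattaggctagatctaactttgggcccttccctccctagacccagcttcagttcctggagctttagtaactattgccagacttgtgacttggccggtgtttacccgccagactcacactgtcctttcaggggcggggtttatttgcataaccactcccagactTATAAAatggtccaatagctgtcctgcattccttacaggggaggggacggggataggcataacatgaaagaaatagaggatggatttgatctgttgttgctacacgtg
Tnfrsf18: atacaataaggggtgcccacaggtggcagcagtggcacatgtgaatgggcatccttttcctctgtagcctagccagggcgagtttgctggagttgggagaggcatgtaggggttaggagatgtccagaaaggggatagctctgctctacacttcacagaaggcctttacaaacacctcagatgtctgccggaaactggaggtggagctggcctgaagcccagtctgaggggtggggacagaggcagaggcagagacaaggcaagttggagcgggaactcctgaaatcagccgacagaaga
TATAAA occurred in 8.32% of all promoters of this length and in 5 of the 39 of the members, those of Eda2r, Lta, Tnf, Tnfrsf17 and Tnfsf18. None of the 3 motifs was found in the windows of Edar, Tnfrsf18 or Ltbr.

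TWEAK (Tnfsf12) and its receptor Tnfrsf12a (Fn14) ran in opposite directions between DRG and paw. The pair is known for tissue repair, and Tnfrsf12a is induced by injury in muscle, skin and nerve. Tnfsf12 was the ligand with the most reads, at 21.4, 18.7 and 18.6 CPM in DRG, 12.3, 12.5 and 13.5 CPM in cord and 8.86, 12.2 and 13.6 CPM in paw. DRG was above the other tissues, which overlapped. Tnfsf12 was higher in DRG than in cord (0.62 ± 0.15, adjusted p = 0.00379, lost without DRG 1 and 2 at 0.55 with an adjusted p of 0.0726), lower in paw than in DRG (−0.76 ± 0.15, adjusted p = 6.16e-04) and not called between paw and spinal cord (−0.14 ± 0.15, adjusted p = 0.407).

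Tnfrsf12a was at 5.81, 5.45 and 5.60 CPM in DRG, 12.0, 12.9 and 11.8 CPM in cord and 29.5, 39.7 and 44.9 CPM in paw. The tissues did not overlap, and paw was highest. The DRG libraries lay between 5.45 and 5.81 CPM while their muscle markers ranged from 35.3 to 955 CPM. The paw libraries had the order of their muscle markers and of the other marker lists named for Ltbr. The part of these cell types in the Tnfrsf12a level was not tested. Tnfrsf12a was lower in DRG than in spinal cord (−1.12 ± 0.15, adjusted p = 7.53e-05), and higher in paw than in DRG (2.76 ± 0.15, adjusted p = 1.15e-08) and spinal cord (1.64 ± 0.15, adjusted p = 6.82e-07). It overlaps the protein-coding gene Hcfc1r1 in RefSeq. Hcfc1r1 was higher in DRG than in cord (0.74 ± 0.10), lower in paw than in DRG (−0.72 ± 0.10) and not called between paw and spinal cord (0.02 ± 0.10). The part of shared reads in the Tnfrsf12a level was not tested. Tnfrsf12a reads per Tnfsf12 read were 0.271, 0.291 and 0.301 in DRG, 0.976, 1.03 and 0.877 in spinal cord and 3.32, 3.26 and 3.30 in paw. This ratio varied little within a tissue, and the pair went from more ligand reads in DRG to more receptor reads in paw. Tnfsf12 shares a read-through transcript with its neighbour Tnfsf13, so the reads of the 2 genes may be split.

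RANK (Tnfrsf11a) and its soluble decoy osteoprotegerin (Tnfrsf11b) were ordered differently from each other. Tnfrsf11a, known for osteoclast formation and also expressed in skin and mammary epithelium, was at 24.8, 26.4 and 26.3 CPM in DRG. It was at 5.60, 5.92 and 4.99 CPM in spinal cord and 17.8, 16.8 and 16.1 CPM in paw. The tissues did not overlap, and the libraries within each lay close together. Tnfrsf11a was higher in DRG than in cord (2.23 ± 0.11, adjusted p = 1.77e-08), and in paw lay below DRG (−0.61 ± 0.10, adjusted p = 1.77e-04) and above spinal cord (1.61 ± 0.11, adjusted p = 7.27e-08). Tnfrsf11b was at 1.88, 0.627 and 1.04 CPM in DRG, 3.25, 3.27 and 4.88 CPM in cord and 3.17, 3.02 and 3.36 CPM in paw. Here DRG was the lowest tissue, below spinal cord (−1.66 ± 0.33, adjusted p = 0.00116) and paw (paw against DRG 1.41 ± 0.34, adjusted p = 0.00232). The ligand RANKL (Tnfsf11) had 2 reads in DRG, 2 in cord and 4 in paw. Summed markers of bone were 19.2 to 28.1 CPM in DRG, 21.2 to 35.8 CPM in spinal cord and 5.49 to 7.89 CPM in paw. Their part in either receptor was not tested.

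The orphan receptors Tnfrsf19 and Relt also separated the tissues. Tnfrsf19 (Troy), which has been described as a co-receptor of the myelin inhibitor complex and in skin and hair follicle progenitors, was at 9.47, 6.52 and 9.61 CPM in DRG. It was at 63.7, 56.7 and 71.2 CPM in spinal cord and 40.8, 47.2 and 57.7 CPM in paw. DRG was far below both other tissues (DRG against spinal cord −2.90 ± 0.18, adjusted p = 9.76e-08; paw against DRG 2.51 ± 0.18, adjusted p = 9.08e-08). Spinal cord and paw overlapped, and the call between them (−0.39 ± 0.16, adjusted p = 0.0393) was lost without spinal cord 1, spinal cord 3, paw 1 or paw 2 (adjusted p = 0.0831, 0.173, 0.15 and 0.117), and with upper quartile scaling (adjusted p = 0.0983).

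Relt, a receptor named from lymphoid tissue, was at 16.0, 21.6 and 16.4 CPM in DRG, 37.9, 40.9 and 26.2 CPM in cord and 2.57, 4.81 and 5.30 CPM in paw. It had the order spinal cord, DRG, paw with no overlap. Relt was lower in DRG than in spinal cord (−0.96 ± 0.23, adjusted p = 0.00408), and lower in paw than in DRG (−2.09 ± 0.26, adjusted p = 2.17e-05) and spinal cord (−3.05 ± 0.26, adjusted p = 9.04e-07).

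Tnfrsf18, Tnfrsf4 and Cd40, which act in co-stimulation, were each higher in paw than in DRG, whereas Tnfrsf25 and Tnfrsf14, which also act on lymphocytes, were lower there, as given above. Tnfrsf18 (GITR), known from regulatory T cells and also from keratinocytes, was at 0.0894, 0.193 and 0.0990 CPM in DRG, or 8 reads in all. It was at 0.100, 0.0467 and 0.115 CPM in spinal cord, or 5 reads, and 3.71, 4.14 and 4.77 CPM in paw. The paw libraries were far above all others. The differences were 4.98 ± 0.34, adjusted p = 7.23e-08, for paw against DRG and 5.52 ± 0.37, adjusted p = 5.50e-08, for paw against spinal cord, the largest of the family in the latter comparison, and 6.33 without spinal cord 1 and 3. Its ligand Tnfsf18 had 2, 1 and 4 reads in the 3 tissues. Summed T and B cell markers ran from 4.57 to 5.54 CPM in paw, 4.49 to 7.13 CPM in DRG and 2.05 to 17.9 CPM in spinal cord. Of the 6 of these markers that were tested, 1 was called higher and 2 lower in paw than in DRG, and 2 higher and 3 lower than in spinal cord. The T cell adhesion receptor Cd2 was higher in paw than in DRG (2.06 ± 0.58, adjusted p = 0.00613) and spinal cord (1.75 ± 0.56, adjusted p = 0.013). Lck, from the same list, was instead lower in paw than in DRG (−1.23 ± 0.32, adjusted p = 0.00426) and spinal cord (−0.85 ± 0.33, adjusted p = 0.0332). The part of T cells and keratinocytes in the Tnfrsf18 level was not tested.

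Tnfrsf4 (OX40), a neighbour of Tnfrsf18 and likewise a co-stimulatory receptor of T cells, was at 1.61, 1.93 and 1.39 CPM in DRG, 1.40, 1.21 and 0.804 CPM in cord and 2.81, 3.58 and 2.53 CPM in paw. Paw lay above DRG (0.85 ± 0.26, adjusted p = 0.00994) and spinal cord (1.37 ± 0.27, adjusted p = 6.00e-04). It overlaps the protein-coding gene Sdf4, which was lower in paw than in DRG (−1.07 ± 0.09) and spinal cord (−1.02 ± 0.09). The part of shared reads in the Tnfrsf4 level was not tested. Its ligand Tnfsf4 had a single read, in spinal cord.

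Cd40, the receptor through which helper T cells activate B cells and macrophages, was at 0.223, 0.241 and 0.446 CPM in DRG. It was at 0.600, 0.560 and 0.918 CPM in spinal cord and 0.838, 1.48 and 1.53 CPM in paw. Paw was higher than DRG (2.07 ± 0.41, adjusted p = 5.69e-04). The remaining calls depended on single libraries. That between paw and spinal cord (0.90 ± 0.36, adjusted p = 0.0384) was lost without spinal cord 1, spinal cord 2, paw 2 or paw 3 (adjusted p = 0.0943, 0.106, 0.11 and 0.129). That between DRG and spinal cord (−1.17 ± 0.43, adjusted p = 0.0357) was lost when DRG 1 or 2 (adjusted p = 0.121 and 0.104) or spinal cord 1 or 3 (adjusted p = 0.0541 and 0.125) was left out. Cd40lg had 2 reads in DRG, 1 in cord and 0 in paw.

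Tnfsf9 (the ligand of 4-1BB), made by activated antigen-presenting cells, was at 0.402, 0.627 and 0.743 CPM in DRG, 1.45, 1.17 and 1.55 CPM in cord and 0.898, 0.926 and 1.12 CPM in paw. It was lower in DRG than in spinal cord (−1.23 ± 0.30, adjusted p = 0.00435, lost without DRG 1 and 2 at −0.89 with an adjusted p of 0.14). Between paw and DRG it was not called (0.73 ± 0.32, adjusted p = 0.0518), but was without DRG 3 or spinal cord 2 (adjusted p = 0.0415 and 0.0442) and with upper quartile scaling, RLE scaling or a minimum of 1 CPM (adjusted p = 0.0273, 0.0464 and 0.046). Its receptor Tnfrsf9 had 8 reads in DRG, 4 in cord and 12 in paw, so that this was a pair with more ligand than receptor in every tissue.

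Tnfsf8 (CD30 ligand) had 2, 2 and 1 reads in DRG, 2, 4 and 5 reads in cord and 6, 13 and 17 reads in paw, and with no filter was called higher in paw than in DRG (3.07, adjusted p = 0.000528) and spinal cord (1.89, adjusted p = 0.00642). Its receptor Tnfrsf8 had 4, 5 and 5 reads in DRG, cord and paw. Cd27, another co-stimulatory receptor of T cells, had 15, 8 and 10 reads. Its ligand Cd70 had 12 reads in spinal cord, 8 of them in spinal cord 3, and 0 in the other tissues. With a floor of 3 reads over each group without reads, the lower bound of the fold in spinal cord was 4.30 against DRG and 3.39 against paw. The counting error of the spinal cord reads is not included.

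The B cell survival factors and their receptors were low everywhere, with BAFF (Tnfsf13b) and its receptor Tnfrsf13c highest in spinal cord. Tnfsf13b, made by myeloid and stromal cells, was at 2.01, 2.27 and 1.88 CPM in DRG, 4.15, 5.46 and 3.96 CPM in cord and 2.21, 2.04 and 1.77 CPM in paw. The spinal cord libraries were above all others (DRG against spinal cord −1.14 ± 0.20, adjusted p = 5.24e-04; paw against spinal cord −1.17 ± 0.21, adjusted p = 2.59e-04). Tnfrsf13c was at 0.804, 0.627 and 0.347 CPM in DRG, 2.20, 2.66 and 1.38 CPM in cord and 0.299, 0.309 and 0.0589 CPM in paw. Its highest library was spinal cord 2, where the summed T and B cell markers were lowest, at 2.05 CPM. The part of B cells in the Tnfrsf13c level was not tested. Tnfrsf13c was lower in DRG than in spinal cord (−1.80 ± 0.40, adjusted p = 0.00246, and −2.56 without DRG 1 and 2) and lower in paw than in spinal cord (−3.21 ± 0.50, adjusted p = 8.33e-05). The call between paw and DRG (−1.41 ± 0.57, adjusted p = 0.0388) was lost without DRG 1, DRG 2, spinal cord 1 or paw 3 (adjusted p = 0.131, 0.0779, 0.0505 and 0.135), and was −0.64 without DRG 1 and 2 (adjusted p = 0.512).

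APRIL (Tnfsf13), the second of these ligands, was at 1.47, 1.45 and 1.98 CPM in DRG, 0.650, 0.373 and 1.03 CPM in cord and 0.958, 0.617 and 0.825 CPM in paw. DRG lay above cord (1.27 ± 0.35, adjusted p = 0.009, and 2.12 without spinal cord 1 and 3). The difference between paw and DRG (−1.02 ± 0.35, adjusted p = 0.0193) lost its call without DRG 3 or paw 2 (adjusted p = 0.0741 and 0.0813). The receptor Tnfrsf13b had 22 reads in DRG, 11 in cord and 7 in paw. The plasma cell receptor Tnfrsf17 (BCMA) had 2 reads in DRG, 7 in cord and 20 in paw, which is 12.7 times more in paw than in DRG (95% exact counting interval 3.08 to 112).

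As ligand and receptor pairs, the family held 30 known pairings, compared per kilobase of exon within each tissue. In DRG the receptor lay above its ligand in 17 pairs, the ligand lay above in 10, and the libraries overlapped in 3. In spinal cord the counts were 17, 9 and 4, and in paw 19, 9 and 2. Pairs share members, so they are not independent. The ligand was above the receptor in every tissue for Eda with Edar, Tnfsf9 with Tnfrsf9, Tnfsf10 with Tnfrsf10b, and both Tnfsf13 and Tnfsf13b with Tnfrsf13b. Only Tnfsf12 with Tnfrsf12a and Eda with Eda2r went from more ligand in DRG to more receptor in paw. Tnfsf12 stood at 13.6 ± 1.13 CPM per kb in DRG and 8.04 ± 1.69 in paw, and Tnfrsf12a at 5.30 ± 0.169 and 35.8 ± 7.40. The median level of all 18 ligands was 0.143 CPM per kb in DRG, 0.192 in cord and 0.256 in paw, and that of the 27 receptors was 0.676, 1.01 and 1.42.

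**Figure D4:**
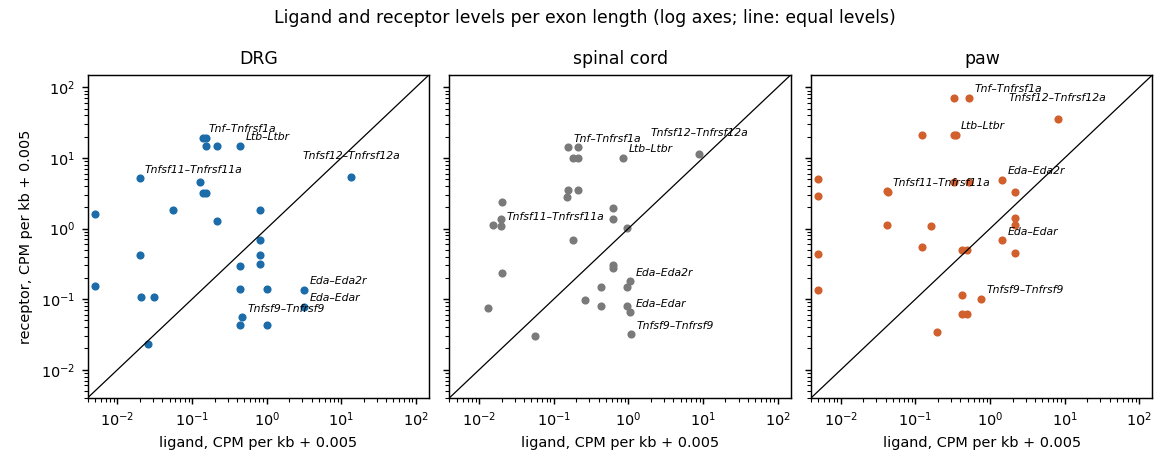
Receptor level against ligand level for the 30 ligand and receptor pairs, 1 panel per tissue, as mean CPM per kb of exon plus 0.005 over 3 libraries on log axes. The diagonal line marks equal levels, and points at the left edge are ligands with no reads. The pair of Tnfsf12 with Tnfrsf12a lies below the line in DRG and above it in paw.

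Read ratios of receptor to ligand were compared for the 9 pairs in which both genes were tested. An exact two-sided permutation test over 3 against 3 libraries cannot give a p below 0.1, which becomes 0.129 after Benjamini-Hochberg adjustment over the 27 comparisons, so none could pass the threshold. Of the pairs of TRAIL, Tnfrsf11b per Tnfsf10 read was 0.393, 0.220 and 0.196 in DRG, 0.970, 1.15 and 1.37 in spinal cord and 0.325, 0.254 and 0.270 in paw. This ratio was highest in the spinal cord libraries, with no overlap. Tnfrsf22 per Tnfsf10 read was instead highest in DRG, at 0.673, 0.864 and 0.542, against 0.164, 0.377 and 0.500 in spinal cord and 0.252, 0.0933 and 0.161 in paw. Tnfrsf23 per Tnfsf10 read overlapped between DRG and spinal cord, at 0.505, 1.00 and 0.533 and 0.985, 0.984 and 0.694, and was 0.497, 0.383 and 0.408 in paw.

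Of 32 genes that signal downstream of these receptors, 12 were higher and 6 lower in DRG than in cord. In paw 17 were higher and 9 lower than in DRG, and 19 were higher and 7 lower than in cord. Their median log2 fold changes were 0.13, 0.47 and 0.81. Over all tested genes, 59.6%, 80.5% and 81.6% were called. In both paw comparisons the death and necroptosis genes Ripk3 and Casp8 had the largest differences after Edaradd. Casp8, the initiator caspase of death receptors, was at 4.69, 3.14 and 4.01 CPM in DRG, 4.60, 3.36 and 3.39 CPM in cord and 39.1, 36.4 and 33.9 CPM in paw. Ripk3, the kinase of necroptosis, was at 0.492, 0.145 and 0.396 CPM in DRG, 0.600, 0.373 and 0.459 CPM in cord and 5.57, 6.42 and 7.48 CPM in paw. Both were far higher in every paw library. Casp8 differed by 3.20 ± 0.17, adjusted p = 7.07e-09, between paw and DRG and Ripk3 by 4.20 ± 0.33, adjusted p = 2.46e-07, and against spinal cord the differences were 3.27 ± 0.17 and 3.75 ± 0.32.

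Between DRG and spinal cord the largest differences were those of Mlkl, the effector of necroptosis (1.78 ± 0.26, adjusted p = 1.00e-04), Adam10, a sheddase (1.39 ± 0.20, adjusted p = 1.62e-04), and Cflar, an inhibitor of caspase-8 (1.38 ± 0.11, adjusted p = 1.14e-06). All 3 were higher in DRG. Mlkl was at 2.14, 1.79 and 1.73 CPM in DRG, 0.500, 0.560 and 0.574 CPM in cord and 2.51, 2.96 and 3.24 CPM in paw, and its call between paw and DRG (0.62 ± 0.22, adjusted p = 0.0197) was lost without DRG 2, DRG 3 or paw 3 (adjusted p = 0.0526, 0.0705 and 0.0744).

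The adaptors differed among themselves. Traf6, which serves Tnfrsf11a, Cd40 and the ectodysplasin receptors, was at 20.6, 15.5 and 21.2 CPM in DRG, 19.6, 19.5 and 23.6 CPM in cord and 153, 110.0 and 99.1 CPM in paw, and was higher in paw than in DRG (2.66 ± 0.18, adjusted p = 8.33e-08) and spinal cord (2.53 ± 0.18, adjusted p = 1.17e-07). Traf1, an NF-kappaB target that modulates TRAF signalling, was instead lowest in paw, with 7.86, 6.37 and 5.30 CPM in DRG, 17.7, 11.5 and 15.4 CPM in cord and 1.62, 1.60 and 2.12 CPM in paw. Spinal cord was highest (paw against spinal cord −3.05 ± 0.23, adjusted p = 1.56e-07; DRG against spinal cord −1.18 ± 0.20, adjusted p = 3.29e-04). Traf2, the common adaptor of the TNF receptors, was not called in any comparison, with a mean of 19.0 ± 0.716 CPM in DRG, 17.3 ± 2.15 CPM in cord and 19.4 ± 0.617 CPM in paw (SD, n = 3). Its differences were 0.14 ± 0.11 for DRG against spinal cord, 0.02 ± 0.11 for paw against DRG and 0.16 ± 0.11 for paw against spinal cord.

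Traf3, a brake on non-canonical NF-kappaB, was lower in paw than in DRG (−1.02 ± 0.16, adjusted p = 9.72e-05) and spinal cord (−1.49 ± 0.16, adjusted p = 4.03e-06). Its call lower in DRG than in spinal cord (−0.47 ± 0.16, adjusted p = 0.0223) was lost without DRG 2 or spinal cord 3 (adjusted p = 0.0838 and 0.104). Traf5, another adaptor of lymphotoxin and Cd40 receptors, was higher in paw than in DRG (1.20 ± 0.22, adjusted p = 3.55e-04) and spinal cord (1.50 ± 0.23, adjusted p = 6.91e-05). Tradd, the adaptor of Tnfrsf1a and Tnfrsf25, was higher in DRG (0.62 ± 0.14, adjusted p = 0.00312) and paw (0.83 ± 0.14, adjusted p = 2.13e-04) than in spinal cord. Fadd, the adaptor of Fas and the TRAIL receptor, was higher in paw than in DRG (0.74 ± 0.17, adjusted p = 0.00177) and lower in DRG than in spinal cord (−0.55 ± 0.17, adjusted p = 0.0161), a call lost without DRG 2 or spinal cord 1 (adjusted p = 0.0613 and 0.0679).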

How the data were processed

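RNA was sequenced from 9 libraries, 3 per tissue. Per the labels' protocols, about 500 ng of RNA went through a stranded mRNA kit and single ends of 50 bp were read. The submitters' processing notes name bcl2fastq, TopHat2, HTSeq and the build mm9. Versions, gene models and strand setting were not given in the sources used here, so genes that overlap others are uncertain. This applies to 16 members, 5 of them with a protein-coding gene. The deposited values are whole-number read counts per gene symbol, made by the authors. Rows that name no gene held 42.9 to 59.3% of each file, mostly reads with several alignments, and stayed out of library sizes and tests. No pair of replicates agreed within counting error (chi-square per degree of freedom 7.3 to 36.7), so none was merged.

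Counts of all 9 libraries were fitted with tissue as the factor in edgeR 4.0.16 (R 4.3.3), with filterByExpr, TMM scaling, robust glmQLFit and glmQLFTest, and Benjamini-Hochberg adjustment over 16091 genes. The SE is the fold change over the square root of F. CPM uses TMM library sizes, and CPM per kb uses merged exon lengths of GENCODE vM21, which may differ from the authors' models. Functions were tested on simulated data. Alternatives used DESeq2 1.42.0, limma-voom (limma 3.58.1), other scalings and filters, a replicate block, and left-out libraries. Fits without DRG 1 and 2 together, or spinal cord 1 and 3 together, were chosen after seeing the data. They leave 1 library of that tissue, whose spread is taken from the other tissues. Intervals cover counting error only, and floors cover only that of the tissue without reads. The members and gene lists were chosen with earlier results of these data known. Values are given for members with a mean of at least 10 CPM in a tissue, for Ltbr and for members called at 2-fold, and read totals for those that failed the filter. Adaptors and the 3 largest downstream changes per comparison are also described, and Tnfrsf23 was added after its values were seen.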

Additional observations from a re-analysis of the deposited data

How the results depend on the processing

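No called difference of a member changed sign under the alternatives run. Without the filter on low counts all 45 members entered the fit, and the ligands called numbered 7 for paw against DRG and 9 for paw against spinal cord, in place of 4 and 4. Of all genes, 70.7% and 72% were called in that fit. Leaving out 1 library at a time gave 16 to 19 members called between DRG and spinal cord, 23 to 28 between paw and DRG and 20 to 25 between paw and spinal cord. Over all genes these fits called 8528 to 9803, 12467 to 13273 and 12659 to 13304. The number of members tested changed with the filter in some of them, so these counts are not shares of a fixed set. For the ligands the ranges were 5 to 6, 4 to 7 and 3 to 7, with 7 between paw and DRG without spinal cord 2 and 7 between paw and spinal cord without spinal cord 3. In those fits the filter relaxed, and 10 and 11 ligands were tested in place of 7. Fits without DRG 1 and 2 together, or without spinal cord 1 and 3 together, leave 1 library of that tissue. Their counts of calls are therefore not set beside these. Correlations of same-numbered libraries across tissues ran from −0.13 to 0.271, and those of differently numbered libraries from −0.447 to 0.341. These ranges overlap, so whether same-numbered samples come from the same mouse was not settled. With the replicate number as a block the counts stayed at 18, 25 and 23 members, and over all genes came to 9500, 12906 and 13074 in place of 9584, 12946 and 13127. Some calls were lost under other tools or settings. With DESeq2 these were Ltb between paw and cord (adjusted p = 0.053) and Cd40 in that comparison (adjusted p = 0.0897) and between DRG and cord (adjusted p = 0.065). With limma-voom they were Ltb (adjusted p = 0.0529) and Tnfrsf25 (adjusted p = 0.0579) between paw and cord. Upper quartile scaling ended the call of Tnfrsf13c between paw and DRG (adjusted p = 0.0553), and no filter that of Cd40 between paw and cord (adjusted p = 0.0521). With only the compared tissues in the fit, Eda between paw and cord (adjusted p = 0.0769), Tnfrsf25 between DRG and cord (adjusted p = 0.0711) and Traf3 between DRG and cord (adjusted p = 0.0605) were lost. The cause was not tested. Members under 1 CPM rest on few reads, which limits the differences that could be detected.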
